A study of Mustela putorius furo with 2 samples.

Results

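RORB encodes the retinoid-related orphan receptor beta, a transcription factor of the nuclear receptor superfamily. It was followed as 1 feature (ENSMPUG00000008883) of the 28156 in the deposited matrices, selected by its symbol, across the cell classes of the ferret (Mustela putorius furo) somatosensory cortex. Nuclei from frozen tissue were profiled on the 10x Genomics droplet platform, and both were labelled DCX knockout, although the series' design text speaks of a knockdown. One library came from the upper band of the cortex and 1 from the deeper band. With 1 library per band no difference between bands has a replicate check, no p-value can be given, and the bands cannot be told apart from the libraries or animals they came from. The age, sex and number of animals are not given in the sources used here, and wild-type tissue was not analysed here.

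ROR proteins bind DNA as monomers at response elements shared with the REV-ERB repressors (NR1D1 and NR1D2), and some of their targets belong to the circadian clock. In sensory cortex, RORB is best known as a marker of layer 4 neurons, the main recipients of thalamic input, where it takes part in the grouping of cells into functional columns. Cortical astrocytes also contain its transcript. CUX2 is a homeodomain factor of upper-layer neurons, and FOXP2 is a forkhead factor of layer 6 corticothalamic neurons.

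The upper-band library held 66253015 unique molecular identifiers (UMIs, each a count of 1 captured transcript) over 7151 barcodes, and the deeper-band library 78352064 over 9694. After filtering, 6261 and 8150 nuclei were kept, with medians of 7992 and 4887.5 UMIs, and 13826 and 20365 RORB UMIs. The libraries shared 24 barcodes, 18 of them among kept nuclei. DCX itself was read at 77.6 CPM (UMIs of a gene per 1000000 UMIs) over all barcodes of each library, which does not check the label without wild-type tissue. Clustering gave 27 clusters, and 25 could be named from marker lists, always as resemblance to a type. All 13 excitatory and all 13 astrocyte markers had at least 1 UMI in the classes named after them. Because the classes were named from these markers, that count does not check the names.

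Relative to all UMIs of a class, RORB was highest in astrocyte-like nuclei. It reached 1331 CPM of the class total in the upper band (95% Poisson interval 1267 to 1398, 388 nuclei, 1605 UMIs) and 1408 CPM in the deeper band (1356 to 1461, 806 nuclei, 2801 UMIs). Excitatory neuron-like nuclei came next, at 293 CPM (287 to 298, 3184 nuclei, 10927 UMIs) and 436 CPM (429 to 442, 3454 nuclei, 16643 UMIs). The astrocyte level was therefore 4.55-fold the excitatory level in the upper band (log2 2.19, 2.11 to 2.26) and 3.23-fold in the deeper band (log2 1.69, 1.63 to 1.75). These and all other intervals cover counting error only.

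The remaining classes were far lower. Oligodendrocyte-like nuclei, taken without a test as a class that lacks RORB, held 64.6 CPM (54.6 to 76.0) and 71.4 CPM (64.3 to 79.0). Oligodendrocyte precursor-like nuclei stood at 50.9 CPM (30.7 to 79.5) and 54.7 CPM (35.7 to 80.1), with intervals that overlapped those of oligodendrocyte-like nuclei. Vascular-like nuclei gave 73.7 and 151.6 CPM, from 36 and 34 UMIs. Microglia-like nuclei had 3 and 2 RORB UMIs in all. Inhibitory neuron-like nuclei were lowest among the classes with more than a few UMIs, at 11.9 CPM (9.70 to 14.4) and 16.5 CPM (13.4 to 20). MGE-like inhibitory nuclei, the class of somatostatin and parvalbumin cells, had 10.6 and 13.9 CPM, and CGE-like nuclei, the class of VIP cells, had 16.2 and 20.02 CPM, with intervals that overlapped. In order of level, astrocyte-like nuclei and then excitatory nuclei stood apart from all other named classes in both bands. The upper-band vascular, oligodendrocyte, precursor and microglia-like values could not be ordered within their intervals.

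**Figure D1:**
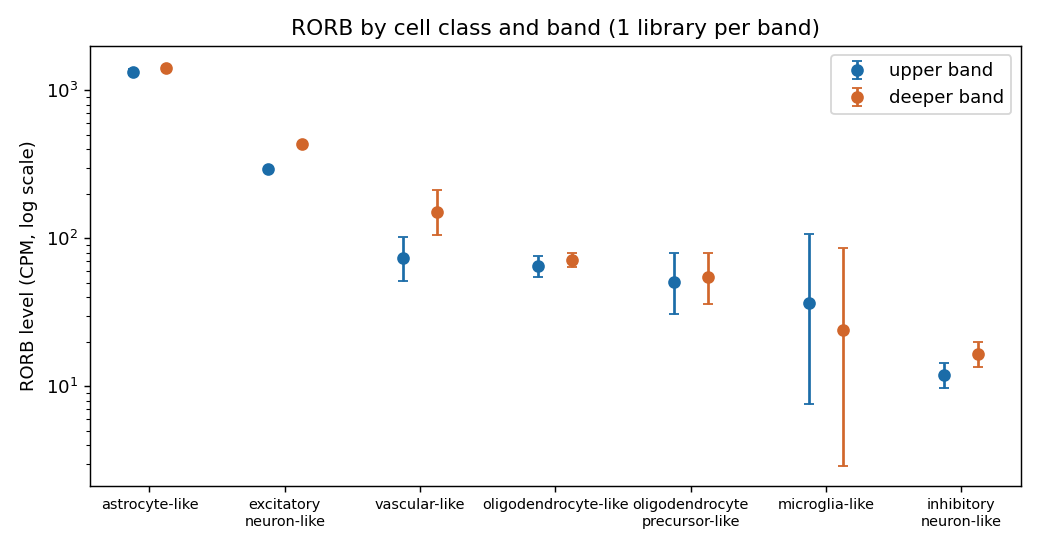
RORB level in each named class (vertical axis, CPM of the class total on a log scale) for the upper band (blue) and the deeper band (orange), with exact 95% Poisson intervals for counting error. Astrocyte-like nuclei sit at 1331 and 1408 CPM, excitatory nuclei at 293 and 436 CPM, and the other classes between 11.9 and 151.6 CPM.

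When depth was made equal, astrocyte-like nuclei stayed first by share with a RORB UMI, excitatory nuclei second and inhibitory nuclei last. The classes between them did not keep their order, and few microglia-like (18 and 9) and vascular-like (88 and 31) nuclei were deep enough. Astrocyte-like nuclei are shallow (medians of 2804 and 2420 UMIs) and excitatory nuclei deep (10750.5 and 10400 UMIs), so each nucleus was thinned at random to 1500 UMIs and shallower nuclei were left out (16 and 6 excitatory, 14 and 52 astrocyte-like, 84 and 451 oligodendrocyte-like). A RORB UMI was then present in 77.5% of upper-band and 79.2% of deeper-band astrocyte-like nuclei, against 92.0% and 85.6% before thinning. In excitatory nuclei the thinned shares were 21.5% and 33.0%, against 38.3% and 49.1% before. In oligodendrocyte-like nuclei they were 7.72% and 7.53%, against 10.9% and 9.87% at median depths of 2250.5 and 1922.5 UMIs. The inhibitory shares of 1.59% and 1.31% lay below those of oligodendrocyte-like nuclei. That comparison cannot tell expression from stray RNA, so no expression is claimed for them, and the part of stray RNA was not tested. Inhibitory nuclei were deeper (medians of 7633.5 and 7263 UMIs), so thinning removed more of their UMIs. Unthinned, 6.95% of upper-band and 9.09% of deeper-band inhibitory nuclei had a RORB UMI. These values compare with 10.9% and 9.87% of oligodendrocyte-like nuclei, and the intervals overlapped in the deeper band only. Whether the low signal was at 1 level per nucleus in all classes was not tested.

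Despite the lower level per transcript captured, excitatory nuclei supplied most RORB molecules. They held 79.0% of all RORB UMIs of kept upper-band nuclei and 81.7% of those of the deeper band, while being 50.9% and 42.4% of the nuclei. Excitatory nuclei have more UMIs per nucleus, and in the deeper band they also held more RORB UMIs per nucleus than astrocyte-like ones. Of the UMIs of all genes, they held 37351986 of 52352189 in the upper band and 38193559 of 53363232 in the deeper band. Astrocyte-like nuclei held 11.6% and 13.8% of the RORB UMIs with 6.197% and 9.89% of the nuclei. Their UMIs of all genes numbered 1205707 and 1989141.

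The glial signal was uneven among clusters. The main astrocyte-like cluster had 1335 CPM in 386 upper-band nuclei and 1464 CPM in 727 deeper-band nuclei. A second one, in which CD44 and GFAP were high, had 693 CPM (564 to 843) in 79 deeper-band nuclei, below its neighbour, and only 2 nuclei in the upper band. It was singled out after its values were seen, and without it the main astrocyte-like cluster alone gave a log2 band ratio of 0.13 (0.04 to 0.22). Among oligodendrocyte-like nuclei, the cluster led by ENPP6 and ABCA9 had 10.4 and 10.6 CPM, from 2 and 12 UMIs, as low as inhibitory neurons. The other oligodendrocyte-like clusters had 65.8 and 75.8 CPM in the upper band and 71.0 and 103 CPM in the deeper band. Beside this, the 13 excitatory markers summed to 222 and 176 CPM in oligodendrocyte-like nuclei (12 and 13 of 13 with a UMI, NEUROD2 at 0 in the upper band) against 2319 and 2448 CPM in excitatory nuclei. The astrocyte markers summed to 234 and 192 CPM there (10 and 12 of 13 with a UMI, ALDH1L1 at 0 in both bands) against 13858 and 14587 CPM in astrocyte-like nuclei. As a median over markers, the excitatory ones were at 28.6% and 18.3% of their level in excitatory nuclei. RORB was at 22.1% and 16.4% of its level there. The astrocyte markers had a median of 1.10% and 2.18% of their astrocyte-like level, and RORB was at 4.86% and 5.07%. The part of stray RNA in the oligodendrocyte RORB level was not tested.

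The spread from nucleus to nucleus differed between the main RORB classes. At 1500 UMIs, astrocyte-like nuclei carried means of 1.99 and 2.17 RORB UMIs, medians of 2 in both bands and up to 13 in 1 nucleus. Nuclei without a RORB UMI made up 22.5% and 20.8% of them, where a Poisson distribution with the same mean has 13.7% and 11.4%. Excitatory nuclei had means of 0.455 and 0.736, medians of 0, and zero shares of 78.5% and 67.0%, where the Poisson shares are 63.4% and 47.9%. The variance was 1.77 and 1.83 times the mean in astrocyte-like nuclei and 2.63 and 2.41 times the mean in excitatory nuclei. In words, most astrocyte-like nuclei contained some RORB, whereas the excitatory class as a whole had many nuclei at 0 and a minority with 1 or more UMIs. That class pools the subclusters described below. The one richest in RORB (E1) had zero shares of 14.7% and 11.9% and a variance of 1.57 and 1.21 times the mean.

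**Figure D2:**
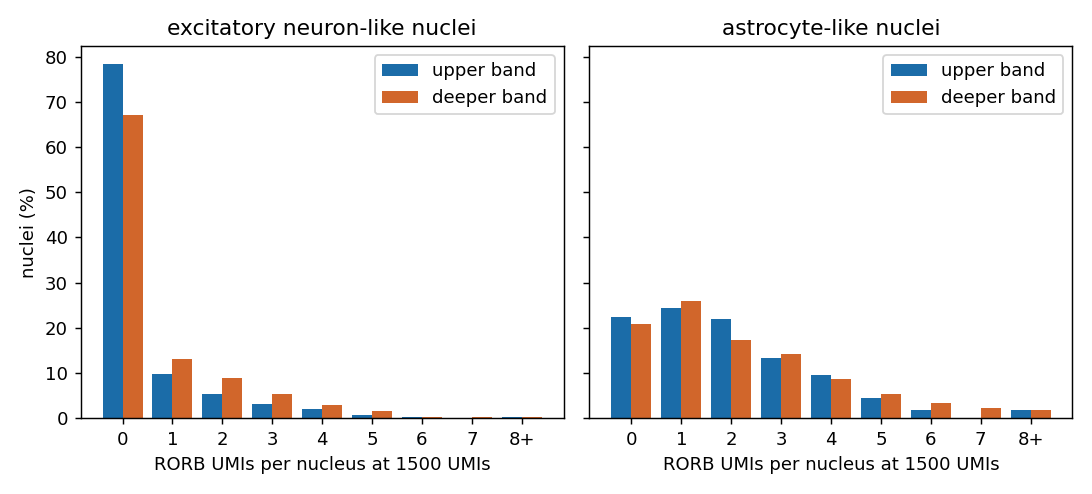
Share of nuclei (vertical axis, %) by number of RORB UMIs per nucleus after thinning to 1500 UMIs (horizontal axis), for excitatory neuron-like nuclei (left) and astrocyte-like nuclei (right) of the upper band (blue) and deeper band (orange). Nuclei at 0 make up 78.5% and 67.0% of excitatory nuclei but 22.5% and 20.8% of astrocyte-like nuclei.

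RORB differed between bands in excitatory nuclei and little in astrocyte-like ones. The excitatory level was 1.49-fold higher in the deeper band, which is 0.57 as a log2 ratio of deeper over upper (exact conditional binomial interval 0.54 to 0.61). Among 13883 genes with at least 100 UMIs in excitatory nuclei, 3.52% had a higher ratio, and the median gene stood at -0.02. By the rule of at least 1.5-fold with an interval clear of 0, 3.37% of these genes were higher and 6.19% lower in the deeper band, and RORB fell just short of 1.5-fold. It passed 1.5-fold in 4 of its 11 alternatives. Their log2 ratios were 0.61 under median-of-ratios scaling, 0.61 as the mean over single nuclei, 0.63 with 2 times as many doublets removed and 0.69 after thinning. With no doublet removal the ratio was lower, at 0.44. CUX2 was 2.00-fold higher in the deeper band, at 296 against 592 CPM (log2 1.00, 0.97 to 1.03). FOXP2 was lower there, at 35.7 against 8.48 CPM (log2 -2.07, -2.25 to -1.90). In astrocyte-like nuclei the RORB ratio was 0.08 (-0.01 to 0.17), and 38.0% of 5278 genes had a higher one. The ratio was 0.14 (-0.14 to 0.43) in oligodendrocyte-like and 0.10 (-0.81 to 1.04) in precursor-like nuclei, neither distinguishable from 0 at this depth. The inhibitory ratio of 0.47 (0.06 to 0.88) rested on 102 and 101 UMIs and was -0.33 (-1.50 to 0.77) after thinning, so no direction is given. The vascular-like ratio of 1.04 (0.32 to 1.76) rested on 36 and 34 UMIs in nuclei with medians of 1155 and 1119 UMIs. Thinning left only 88 and 31 of these nuclei.

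In the excitatory class, RORB went with CUX2. Each nucleus was thinned to 3000 UMIs, which left 3128 upper-band and 3401 deeper-band nuclei, and was called positive for a gene at 1 UMI or more. The CUX2-positive, FOXP2-zero nuclei had 615 CPM of RORB in the upper band (589 to 641, 1168 nuclei) and 579 CPM in the deeper band (562 to 596, 2458 nuclei). CUX2-zero, FOXP2-zero nuclei had 146 CPM (136 to 157, 1669 nuclei) and 211 CPM (193 to 229, 865 nuclei). CUX2-positive nuclei thus held 4.205-fold (log2 2.07, 1.95 to 2.19) and 2.75-fold (log2 1.46, 1.33 to 1.59) as much RORB. FOXP2-positive nuclei had 38.9 CPM (27.0 to 54.4, 34 UMIs in 291 nuclei) and 8.55 CPM (1.04 to 30.9, 2 UMIs in 78 nuclei), below both other strata at this depth. With all UMIs used, FOXP2-positive nuclei had 76.3 CPM against 99.8 CPM in CUX2-zero, FOXP2-zero nuclei of the upper band, and 100.9 against 107 CPM in the deeper band, so the gap between these strata depended on the depth at which status was read. At 3000 UMIs, a UMI of both CUX2 and FOXP2 was present in 8 upper-band and 5 deeper-band nuclei. With all UMIs used, 65 and 43 nuclei had both, with 198 and 235 CPM of RORB.

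RORB climbed with the number of CUX2 UMIs. In the upper band it was 131 CPM in nuclei with 0 CUX2 UMIs, 462 with 1, 604 with 2, 668 with 3, 895 with 4 and 801 with 5 or more. The deeper band gave 195, 418, 536, 605, 759.7 and 913 CPM in the same order. The intervals at 2 and 3 CUX2 UMIs overlapped in both bands, as did those at 4 and at 5 or more in the upper band, and no other neighbours did. With FOXP2, the level went from 339 CPM at 0 UMIs to 46.3 at 1 and 17.8 at 2 or more in the upper band. In the deeper band it went from 483 to 5.38 and 20.8 CPM, the last 2 from 1 RORB UMI each.

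**Figure D3:**
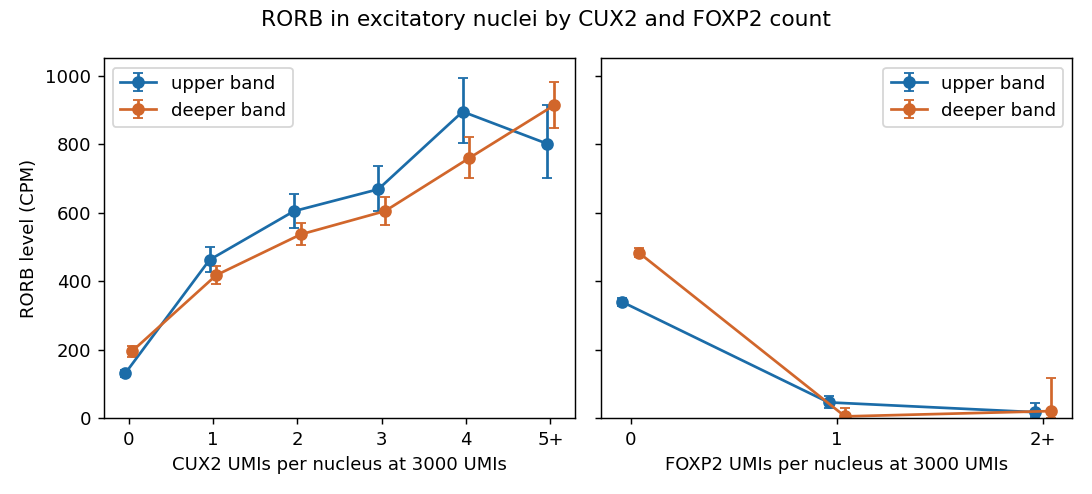
RORB level of excitatory nuclei (vertical axis, CPM) by the number of CUX2 UMIs (left) or FOXP2 UMIs (right) in the same nucleus after thinning to 3000 UMIs, for the upper band (blue) and deeper band (orange), with exact 95% Poisson intervals. RORB goes from 131 and 195 CPM without a CUX2 UMI to 801 and 913 CPM with 5 or more, and lies at or below 46.3 CPM wherever FOXP2 was read.

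Seen from RORB, the same nuclei split as follows. Nuclei with 3 or more RORB UMIs at this depth, called RORB-high, numbered 469 (14.99%) among upper-band and 785 (23.1%) among deeper-band nuclei. This limit was set after class and subcluster levels had been seen. Of RORB-high nuclei, 77.8% (73.8 to 81.5%) and 88.8% (86.4 to 90.9%) had a CUX2 UMI, against 27.7% and 64.3% of nuclei with no RORB UMI. A FOXP2 UMI was present in 0.426% of upper-band and in 0 of 785 deeper-band RORB-high nuclei (upper limit 0.469%), against 12.01% and 3.74% of RORB-zero nuclei. RORB-high nuclei were therefore mostly CUX2-positive and almost free of FOXP2, but many CUX2-positive nuclei lacked RORB. Of the CUX2-positive, FOXP2-zero nuclei, 47.4% and 47.1% had a RORB UMI.

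Within CUX2-positive, FOXP2-zero nuclei the band ratio of RORB was -0.09 (-0.16 to -0.01), against 0.57 over all excitatory nuclei. These nuclei made up 37.3% of the upper-band and 72.3% of the deeper-band excitatory nuclei. With all UMIs used, a setting added after the data were seen, the ratio of this stratum was -0.03 (-0.06 to 0.01), an interval that holds 0. Within CUX2-zero, FOXP2-zero nuclei the ratio was 0.53 (0.37 to 0.69), but it depended on how deeply CUX2 status was read. It was 0.00 (-0.20 to 0.20) with status at 6000 UMIs and 0.10 (-0.07 to 0.26) with all UMIs. The FOXP2-positive ratio of -2.19 (-5.29 to -0.22) changed sign in 7 of its alternatives. No direction is given for it.

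Excitatory nuclei were clustered again with RORB, CUX2 and FOXP2 left out, which gave 19 subclusters. They are numbered E1 to E19 by falling RORB level, so their order is a description and no result. RORB went from over 1000 CPM in the first subclusters to a few UMIs in the last. E1 (leading genes PDGFD and MME) had 1581 CPM (1529 to 1634, 218 nuclei) in the upper band and 1526 CPM (1472 to 1583, 195 nuclei) in the deeper band. E2 (POU2F3, PTGIS) had 1146 CPM in 102 and 1201 CPM in 565 nuclei. E3 (NEB, HHIP) had 1032 CPM in 173 and 1016 CPM in 284 nuclei. All or nearly all of these nuclei had a RORB UMI, from 100% of E1 in both bands to 92.6% of E3 in the deeper band. RORB in E1 was above the astrocyte-like level, by a log2 ratio of 0.25 (0.16 to 0.33) and 0.12 (0.04 to 0.19). In E2 and E3 it was below that level, with ratios of -0.22 and -0.23 in E2 and of -0.37 and -0.47 in E3.

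Intermediate levels came from subclusters with different CUX2. E5 (CYP2S1, SYT2) had 497 and 544 CPM of RORB with 587 and 652 CPM of CUX2. E4 (HMCN1, LGR5) had 555 and 742 CPM of RORB with 208 and 322 CPM of CUX2, and FOXP2 at 48.8 and 24.1 CPM. E6 (SH3BP4, CCBE1) had 221 and 230.2 CPM of RORB with CUX2 at only 30.0 and 45.6 CPM. E4 and E6 thus contained RORB with less CUX2 than the subclusters above. They were 16.0% of upper-band and 4.89% of deeper-band excitatory nuclei and held 21.3% and 5.61% of the excitatory RORB UMIs.

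High CUX2 was found over the whole RORB range. E1, with 859 and 952 CPM of CUX2, had the most RORB. E7 (ZNF536, VWA2) had 626 and 654 CPM of CUX2 with 133 and 109 CPM of RORB, and E8 (ANGPT1, SYT10) 681 and 671 CPM of CUX2 with 89.3 and 92.2 CPM of RORB. E13 (MCHR2, SLC17A6) had 452 CPM of CUX2 in each band and 17.5 and 11.5 CPM of RORB. E19 (MEGF11, TANC1, with the astrocyte gene AQP4 also among its leading genes) had 514 and 507 CPM of CUX2 and 5.17 and 6.199 CPM of RORB, from 8 and 9 UMIs. E7, E8, E13 and E19 together were 21.6% of upper-band and 46.6% of deeper-band excitatory nuclei, and they held 3.51% and 7.71% of the excitatory RORB UMIs.

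The subclusters richest in FOXP2 were among the lowest in RORB. E18 (BMPR1B, RXFP1, with FOXP2 among its leading genes) had 192 and 169 CPM of FOXP2 and 5.92 and 6.75 CPM of RORB. E12 (NXPH2, PROM1) had 133 CPM of FOXP2 in the upper band with 6.76 CPM of RORB. Its deeper-band RORB value of 85.8 CPM came from 17 UMIs in 1 of 17 nuclei. Levels in E9 (GALNT14, SEMA3E) were 36.1 and 29.1 CPM. Except for that E12 value, the subclusters from E10 onward had 25.05 CPM or less, against 11.9 and 16.5 CPM in inhibitory nuclei.

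**Figure D4:**
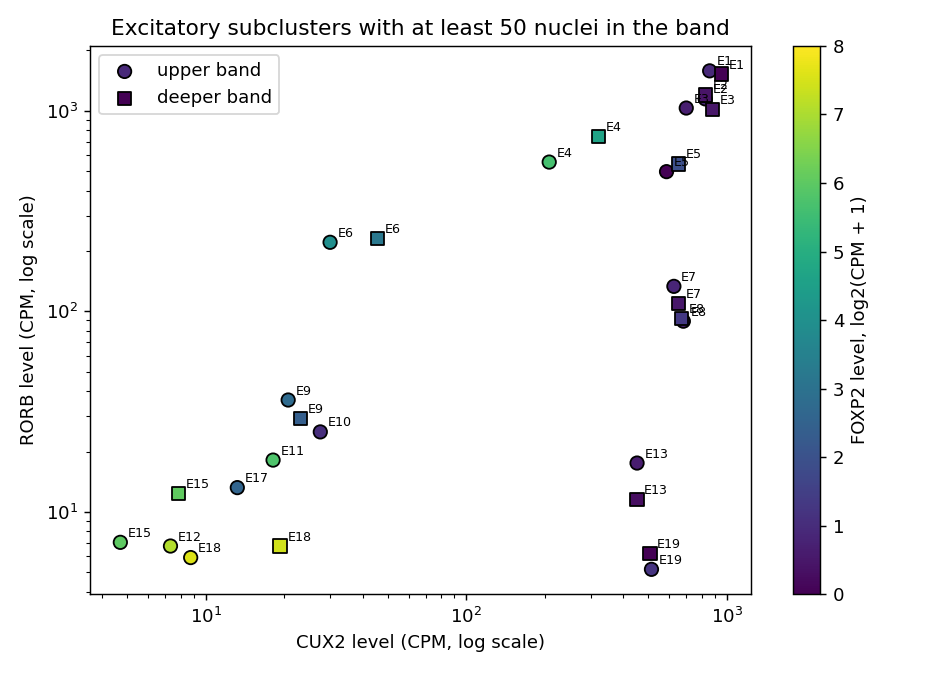
RORB level (vertical axis) against CUX2 level (horizontal axis), both in CPM on log scales, for excitatory subclusters with at least 50 nuclei in the upper band (circles) or the deeper band (squares), coloured by FOXP2 as log2(CPM + 1). E1 to E3 and E5 lie at high CUX2 and high RORB, E4 and E6 at lower CUX2 with RORB between 221 and 742 CPM, E13 and E19 at high CUX2 with RORB at or below 17.5 CPM, and E18 at high FOXP2 with RORB at 5.92 and 6.75 CPM.

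Even inside a subcluster, RORB tracked CUX2 and FOXP2 unevenly. With all UMIs of each nucleus used, E4 nuclei with a CUX2 UMI had 902 CPM of RORB in the upper band (847 to 960, 88 nuclei) and E4 nuclei without one had 350 CPM (323 to 378, 177 nuclei). The deeper band gave 981 CPM in 44 and 497 CPM in 49 nuclei. E4 nuclei with a FOXP2 UMI had 324 CPM (289 to 361, 84 nuclei) against 671 CPM (635 to 708, 181 nuclei) without one, and 385 against 825 CPM in the deeper band. In the upper band, 76.2% of the E4 nuclei with a FOXP2 UMI also had a RORB UMI, so both transcripts were read in the same nuclei there. In E6 the upper-band order was the opposite, with 158 CPM (125 to 196, 38 nuclei) where CUX2 was read and 233 CPM (215 to 252, 208 nuclei) where it was not. By FOXP2, too, upper-band E6 went the other way, with 285 CPM (233 to 346, 27 nuclei) where it was read and 213 CPM (196 to 230.4, 219 nuclei) where it was not. In the deeper band E6 gave 319 CPM (255 to 394) in 17 nuclei with and 197 CPM (166 to 232) in 59 nuclei without a CUX2 UMI, so that order differed between the bands, and only 3 E6 nuclei had a FOXP2 UMI.

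Band ratios were also taken within subclusters. Of 13 subclusters with at least 50 nuclei in both bands, 2 had more RORB in the deeper band, 2 had less, and 9 had intervals that held 0. The higher ones were E4 at 0.42 (0.29 to 0.55) and E5 at 0.13 (0.03 to 0.23). The lower ones were E7 at -0.29 (-0.53 to -0.04) and E13 at -0.60 (-1.16 to -0.05). The ratios of E1, E2 and E3 were -0.05 (-0.12 to 0.02), 0.07 (-0.02 to 0.15) and -0.02 (-0.11 to 0.07).

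The share of nuclei in the RORB-rich subclusters differed more between the bands. E1 to E3, grouped after their levels were seen, were 15.5% of upper-band excitatory nuclei (14.2 to 16.8%) and 30.2% of deeper-band ones (28.7 to 31.8%). They held 60.9% and 74.4% of the excitatory RORB UMIs and 69.3% and 83.6% of the RORB-high nuclei. E2 alone was 3.20% of upper-band and 16.4% of deeper-band excitatory nuclei, whereas E1 was 6.85% and 5.65%. With the subcluster shares of the upper band applied to both bands, the excitatory RORB level was 293 against 309 CPM, a log2 ratio of 0.08 (0.04 to 0.12). With the shares of the deeper band it was 427 against 436 CPM, a ratio of 0.03 (-0.01 to 0.07). Because shares add up to 100% in each library, a larger share of one subcluster lowers the others.

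**Figure D5:**
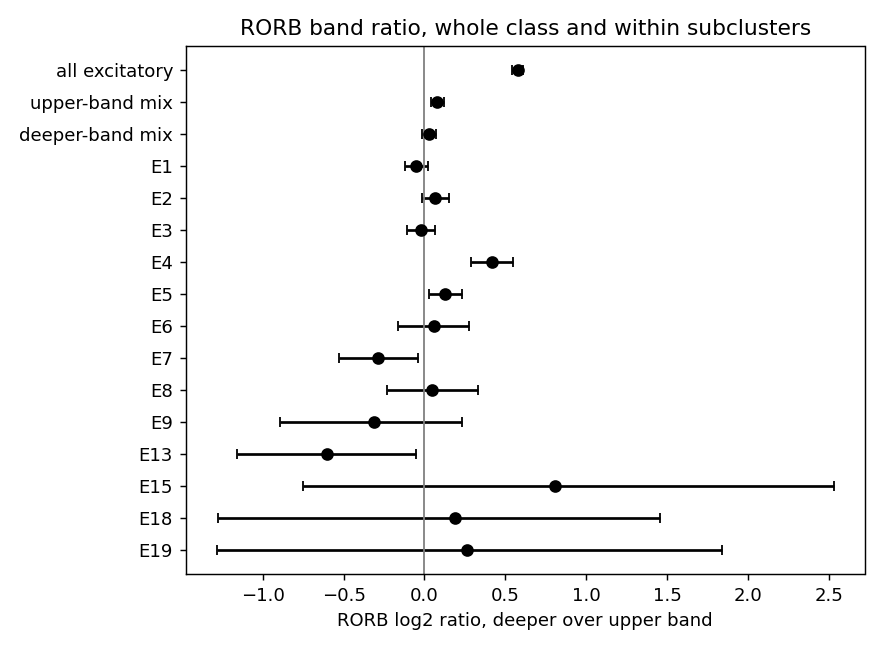
Log2 ratio of RORB CPM, deeper over upper band (horizontal axis), for all excitatory nuclei, for the class at the subcluster mix of the upper or deeper band, and within each subcluster with at least 50 nuclei in both bands. Bars are 95% intervals for counting error. The ratio of the whole class is 0.57, the ratios at a fixed mix are 0.08 and 0.03, and 9 of 13 subcluster intervals hold 0.

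Other transcripts of RORB-high excitatory nuclei were set beside those of nuclei without a RORB UMI, in each band. The sets were chosen on RORB and differ in subclusters, so the values are descriptions. Of 7727 genes with enough UMIs, 3.99% were at least 1.5-fold higher and 5.31% at least 1.5-fold lower in both bands with intervals clear of 0. KCNH8, a voltage-gated potassium channel gene, led the higher ones, at 7.74 against 97.4 CPM in the upper band (log2 3.65) and 3.45 against 57.3 CPM in the deeper band (log2 4.06). The rest of the 10 highest included PLCH1, a phospholipase C gene (log2 2.67 and 3.65), FOLH1, which encodes a glutamate carboxypeptidase (3.46 and 2.91), and MYLK, a myosin light chain kinase gene (3.09 and 3.21). The others were the cadherin CDH20 (2.67 and 2.65), the receptor phosphatase PTPRM (2.57 and 2.64), the integrins ITGA9 (3.32 and 2.45) and ITGA8 (2.38 and 2.46) and the netrin-G gene NTNG1 (2.88 and 2.42). ANTXR2 completed the 10, at 2.46 and 2.50. These ratios compare excitatory nuclei only and do not make a gene particular to them. FOLH1 had 1633 and 1578 CPM in oligodendrocyte-like nuclei against 36.0 and 27.5 CPM in all excitatory nuclei. NTNG1 went the other way, at 106 and 88.6 against 374 and 415 CPM.

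The lowest of the genes with at least 100 UMIs in each band was BCL11B, a transcription factor of deep-layer projection neurons, at 141 CPM in RORB-zero and 4.98 CPM in RORB-high nuclei of the upper band (log2 -4.83) and 73.4 and 2.97 CPM in the deeper band (log2 -4.63). SEMA3E, a semaphorin of deep-layer neurons, stood at -3.15 and -3.40, SLIT3 at -2.94 and -2.73, IGSF21 at -3.24 and -3.53 and SYNPO2 at -3.02 and -4.03. RGS12, CHST8, SEC14L4 and CHST9 lay between -2.71 and -3.56. TMEM132E had 24.9 CPM in upper-band RORB-zero nuclei and no UMI in RORB-high ones, with 25.5 and 2.97 CPM in the deeper band. FOXP2 was not ranked, as it had only 98 UMIs in the deeper band. It went from 53.1 CPM in RORB-zero to 1.42 CPM in RORB-high nuclei of the upper band, and from 16.1 CPM to no UMI in those of the deeper band.

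The gene lists chosen around RORB behaved differently. Of 15 layer 4 genes with enough UMIs, 7 were higher and 2 lower in RORB-high nuclei, with medians of 0.65 and 0.67 in the upper and deeper band against -0.02 and -0.03 over all genes. Besides PLCH1 and NTNG1, CUX2 (1.86 and 0.86) and KCNH5 (1.06 and 1.62) were higher, and TOX (-1.86 and -2.36) and PDZRN4 (-1.87 and -1.20) lower. Of 16 tested genes of the ROR and clock list 2 were higher and none lower, against 3.99% and 5.31% of all genes. They were RORA, which encodes another ROR protein, at 24.9 against 100.2 CPM (log2 2.01) and 29.1 against 70.5 CPM (1.28), and ARNTL, which encodes the clock activator BMAL1, at 0.81 and 0.70. Of 11 nuclear receptor cofactors only the coactivator NCOA3 passed (0.69 and 0.63). Among 13 layer transcription factors, CUX2 and NR2F1 (1.498 and 1.01) were higher, and BCL11B, TLE4 (-2.53 and -1.55) and ZFPM2 (-2.86 and -2.66) lower. Of 5 tested astrocyte transcription factors 3 were lower, namely NFIA (-1.54 and -1.48), NFIB (-1.19 and -1.31) and GLI3 (-1.92 and -2.34).

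The same lists were compared between bands. In excitatory nuclei, where 3.37% of all tested genes were higher and 6.19% lower, 0 of 19 tested ROR and clock genes passed 1.5-fold with an interval clear of 0, a count near that background, and their median ratio was 0.07. RORA was at 35.6 and 36.3 CPM (0.03, -0.08 to 0.14), NR1D2 at 0.11 and ARNTL at 0.20. In astrocyte-like nuclei, where 2.99% of genes were higher and 2.18% lower by this rule, 1 of 12 was lower, the clock output factor HLF at 84.6 and 56.3 CPM (-0.59, -0.99 to -0.19). Of 12 cofactors in excitatory nuclei NRIP1 was higher (0.81, 0.51 to 1.12), which is also near the background. The 18 layer 4 genes split, with 4 higher (PLCXD2 at 1.37, UNC5D at 1.06, CUX2 at 1.00 and KCNIP2 at 0.62) and 3 lower (TOX at -1.76, THSD7A at -1.02 and EYA4 at -0.65). Of 17 layer transcription factors, 2 were higher (CUX2 and POU3F2, the latter at 0.59) and 6 lower, led by FEZF2 at -2.18 and FOXP2. Among the astrocyte transcription factors tested in excitatory nuclei, EMX2 was higher (1.08), and those lower included NFIB (-0.87) and GLI2 (-1.06). In astrocyte-like nuclei 0 of 12 astrocyte transcription factors, 0 of 9 cofactors and 0 of 9 layer transcription factors passed, and of 10 layer 4 genes THSD7A (-0.77) and CADPS2 (-0.94) were lower.

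Genes whose levels were most like those of RORB were ranked by Pearson's r of log2(CPM + 1). Over the 14 combinations of 7 named classes and band, among 8580 genes, AK4, a mitochondrial adenylate kinase gene, came first (r = 0.89). It had 566 and 551 CPM in astrocyte-like and 78.9 and 78.7 CPM in excitatory nuclei, and 9.79 and 9.13 CPM in inhibitory nuclei. KCNH4 (0.87), SLC20A1 (0.86), DNAH7 (0.85), CPE (0.85), LHX2 (0.82), KLF9 (0.82), GASK1B (0.81), STK38L (0.80) and NDP (0.79) followed. Over the 30 combinations of excitatory subcluster and band, among 7647 genes, PTPRM came first (r = 0.88), with 1313 and 920.3 CPM in E1 and 84.1 and 69.4 CPM in E18. PHKA2, CDK18 and RHOBTB1 followed at 0.87, APBB2 at 0.86, ADRA1D, ARNTL and TGFB2 at 0.85 and FOLH1 at 0.84. RORA had an r of 0.83 over subclusters, CUX2 0.64 and FOXP2 -0.43, while over classes the values were 0.56, -0.13 and 0.38. The points share 2 libraries and differ in depth, and these r values are descriptions.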

How the data were processed

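The authors deposited, for each library, a matrix of UMI counts per gene and barcode, not normalized, per the file headers and since all values are whole numbers. A header names software version 3.1.0, and the submitters' processing notes list Cell Ranger 6.2.1 and 2.1.1 without a role. The genome build, annotation and treatment of intronic reads are not given in the sources used here, so no coordinates are printed. Groups were taken from the labels' tissue region. Nuclei with at least 500 genes were kept, and Scrublet (scanpy 1.11.5, expected rate 0.8% per 1000 nuclei) removed 830 (11.7%) upper-band and 1458 (15.2%) deeper-band nuclei. No correction for free RNA was made.

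After scaling each nucleus to 10000 counts and a log transform, 2000 variable genes, 30 principal components and 15 neighbours were used, and Leiden clusters were formed at resolution 1 (igraph 0.11.9, scikit-learn 1.9.0, Python 3.11.15). RORB was among the variable genes of the class clustering, so clusters are not independent of it. Excitatory nuclei were clustered again without RORB, CUX2 and FOXP2. Each cluster was given the class name with most raised markers, and stayed unnamed with under 3 of them or where markers of another class led it.

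UMIs were summed per class and library, as CPM of the class total. Intervals are 95% exact Poisson (sums), Clopper-Pearson (shares) and conditional binomial (ratios), computed with SciPy 1.17.1. The ratio intervals were checked on simulated Poisson counts only. That check does not cover the spread between nuclei. Thinning to 1500 or 3000 UMIs was 1 seeded draw. Band ratios and the RORB-high comparison used genes with at least 100 UMIs, a minimum set with the levels known, and likeness used at least 500 UMIs over the points and subclusters of at least 50 nuclei. Named genes are RORB, CUX2 and FOXP2, the 10 most like RORB over classes and over subclusters, the 10 highest and lowest in RORB-high nuclei with 1 sign in both bands, and list members past 1.5-fold, at most 4 each way. Some genes that this rule names are not reported here. RORB, the lists, the naming rule and the tests were chosen with earlier results of these data known. Alternatives covered doublet removal, the gene minimum, resolution, clustering, scaling, depth and status.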

Additional observations from a re-analysis of the deposited data

How the results depend on the processing

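Of 100 alternative values for 11 results, 76 stayed within the counting error of the reported value, 16 moved beyond it and 8 reversed a value whose interval had been clear of 0. In all 10 values had the opposite sign, since 2 of the 76 belong to the oligodendrocyte precursor-like ratio (0.10, -0.81 to 1.04), which was -0.52 with no doublet removal and -0.62 after thinning. The log2 band ratio in excitatory nuclei (0.57) was 0.44 with no doublet removal, 0.63 with 2 times as many doublets removed and 0.69 after thinning to 1500 UMIs. The log2 ratio of the astrocyte-like over the excitatory level (2.19 in the upper band) was 2.01 there with no doublet removal. In the deeper band this log2 ratio (1.69) was 1.63 with 2 times as many doublets removed and 1.57 after thinning. It was 1.56 there when the CPM values of single nuclei were averaged. The log2 band ratio in CUX2-positive, FOXP2-zero nuclei was -0.19 with 2 times as many doublets removed and -0.21 with status at 1500 UMIs. In CUX2-zero, FOXP2-zero nuclei it was 0.85 with 2 times as many doublets removed, 0.73 with a minimum of 1000 genes, 0.78 with status at 1500 UMIs, 0.0036 at 6000 UMIs and 0.10 with all UMIs, the last added after seeing the data. At the upper-band subcluster mix the ratio was 0.14 with RORB, CUX2 and FOXP2 kept in subclustering and 0.031 with the deeper-band mix. The reversed values were the inhibitory ratio after thinning (-0.33) and the FOXP2-positive ratio. The latter was 0.97 with no doublet removal, 0.92 with 2 times as many doublets removed, 0.48 with a minimum of 1000 genes, 1.40 with status at 1500 UMIs, 0.76 at 6000 UMIs, 0.23 with positivity from 2 UMIs and 0.40 with all UMIs. The cause of these shifts was not tested. No paired analysis was possible because each band had 1 library, and for the same reason no library could be left out. Vascular-like and microglia-like nuclei are shallow, and thinning was a single draw.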

Other observations

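Nuclei of 2 clusters were left unnamed because they carried markers of more than 1 class, and both contained RORB. In the cluster with astrocyte and oligodendrocyte markers, RORB stood at 783 CPM (728 to 841, 150 nuclei) in the upper band and 999 CPM (874 to 1137, 47 nuclei) in the deeper band. A RORB UMI was present in 92.7% and 87.2% of these nuclei. In the cluster with microglia and oligodendrocyte markers it stood at 228 CPM (200 to 258, 155 nuclei) and 195 CPM (166 to 229, 136 nuclei), above the 36.7 and 24.0 CPM of microglia-like nuclei and the 64.6 and 71.4 CPM of oligodendrocyte-like nuclei. The 13 astrocyte markers had a median level of 13.3% and 14.9% of that in astrocyte-like nuclei in the second cluster and of 56.5% and 62.5% in the first, while RORB was at 17.1% and 13.9% and at 58.8% and 70.9% of its astrocyte-like level. Together the unnamed nuclei held 7.15% and 1.89% of the RORB UMIs.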
